A study of Drosophila sechellia and Drosophila melanogaster and Drosophila simulans with 18 samples.

Results

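The genes described here drive DNA replication and the cell cycle. They were taken by symbol from a list of 46 genes, and 44 of the 46 were found by that symbol among the 17649 genes of the *D. melanogaster* table. Of the same 46 symbols, 2 were found among the 15372 genes of the *D. simulans* table (*Mcm3* and *plu*) and 1 among the 17273 genes of the *D. sechellia* table (*plu*), because most genes of those tables carry only a number in place of a name. RNA-seq was done on whole adult females in the first days after eclosion, reared at 20°C. They were kept for 24 h on food with 0.23% hexanoic acid (HA) or on control food without it, with 3 libraries of pooled flies for each diet and species and 18 libraries in all. HA is a fatty acid among the volatiles of *Morinda citrifolia* fruit, the host plant of *D. sechellia*. Each species was represented by 1 strain, 14021-0231.36 of *D. melanogaster*, 14021-0251.195 of *D. simulans* and 14021-0428.25 of *D. sechellia*, so strain and species cannot be told apart.

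The mitotic cyclins bind the kinase Cdk1 and bring cells into division, while cyclins D and E with Cdk4 and Cdk2 open the way to DNA synthesis. Origins of replication are marked by the origin recognition complex, which loads the Mcm helicase, and the anaphase-promoting complex (APC/C), a ubiquitin ligase, destroys cyclins and securin to end mitosis. In an adult female fly most dividing and endoreplicating cells lie in the ovary, with further dividing stem cells in the gut, and the egg is stocked with maternal mRNAs of cell cycle genes for the rapid nuclear divisions of the early embryo.

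Each table held 1 FPKM value per gene and diet (fragments scaled for transcript length and for the number of mapped reads), pooled by Cuffdiff over the 3 libraries of that diet. There was no value per library and no read count, so no SD, interval or test of the diet could be given, the depth behind each value is unknown from the tables, and every ratio below is a description of pooled libraries without a replicate check. Ratios are the log2 of HA over control after 0.1 FPKM was added to both, which understates the difference of low genes. A margin of 25% was set for counting: a gene was higher or lower past the margin where, with the 0.1 FPKM added, the larger of its values exceeded the smaller by 25% or more (0.32 on the log2 scale). All genes with a mean of at least 1 FPKM over the diets, 10427 in *D. melanogaster*, served as the background. Every one of the 44 listed genes passed this minimum.

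In *D. melanogaster* most of the cell cycle genes lay slightly above control on HA food. The list was chosen with earlier results of these data known, so its counts describe these genes and are no independent check. The level on HA food was above that on control food for 38 of the 44 genes (86.4%) and below it for 6, against 50.4% above among all 10427 genes. The median log2 ratio of the 44 genes was 0.19, beside 0.0028 over all genes, and the interquartile range of the 44 lay between 0.050 and 0.27. The differences were small. Higher past the margin were 5 of the 44 (11.4%), *CycB3*, *thr*, *dup*, *BubR1* and *fzy*, against a background of 7.39% of all genes, and lower past the margin was 1 of the 44 (2.27%), *pim*, against 16.9% of all genes. With a pseudocount of 1 FPKM only 3 were higher past the margin, as *fzy* and *BubR1* moved just inside it. With one of 0.01 FPKM 6 were, as *Mcm2* moved just past it. The share of all genes was not computed for these pseudocounts. No listed gene reached 1.5-fold, a size that 1.93% of all genes reached upwards and 6.06% downwards. The list's mean levels lay between 6.59 and 351 FPKM, and among the 7360 genes in that range 53.1% were above control, 6.06% were higher past the margin and 14.3% lower past the margin. Summed over the 44 genes, the level was 2376 FPKM on HA food and 2160.4 FPKM on control food, which is 0.235% and 0.206% of all FPKM on HA and control food.

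**Figure D1:**
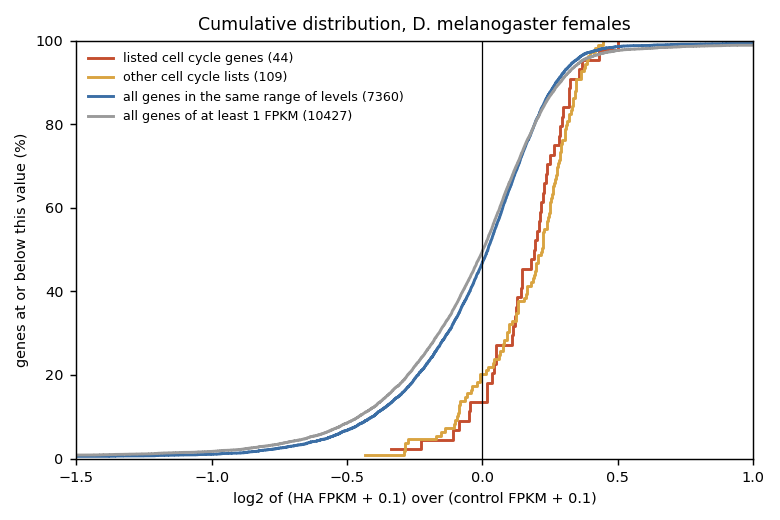
Share of genes (vertical axis, %) at or below each log2 ratio of HA over control (horizontal axis, FPKM + 0.1) in *D. melanogaster*, for the 44 listed genes, 109 genes of the other cell cycle lists, 7360 genes in the same range of levels and all 10427 genes of at least 1 FPKM. The curves of both cell cycle groups cross 0 at a lower share of genes than the curves of all genes, with medians of 0.19 and 0.22 against 0.0028 over all genes.

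The order of the levels was much the same on both diets, and the first 10 ranks were identical. *CycB* led with 376 FPKM on HA food and 326 FPKM on control food, and *thr* was last with 7.59 FPKM on HA food and 5.60 FPKM on control food. On each diet 10 genes had 50 FPKM or more, 31 had between 10 and 50 FPKM and 3 had less than 10 FPKM. Without a value per library it cannot be said which neighbours in this order differ beyond their spread.

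**Figure D2:**
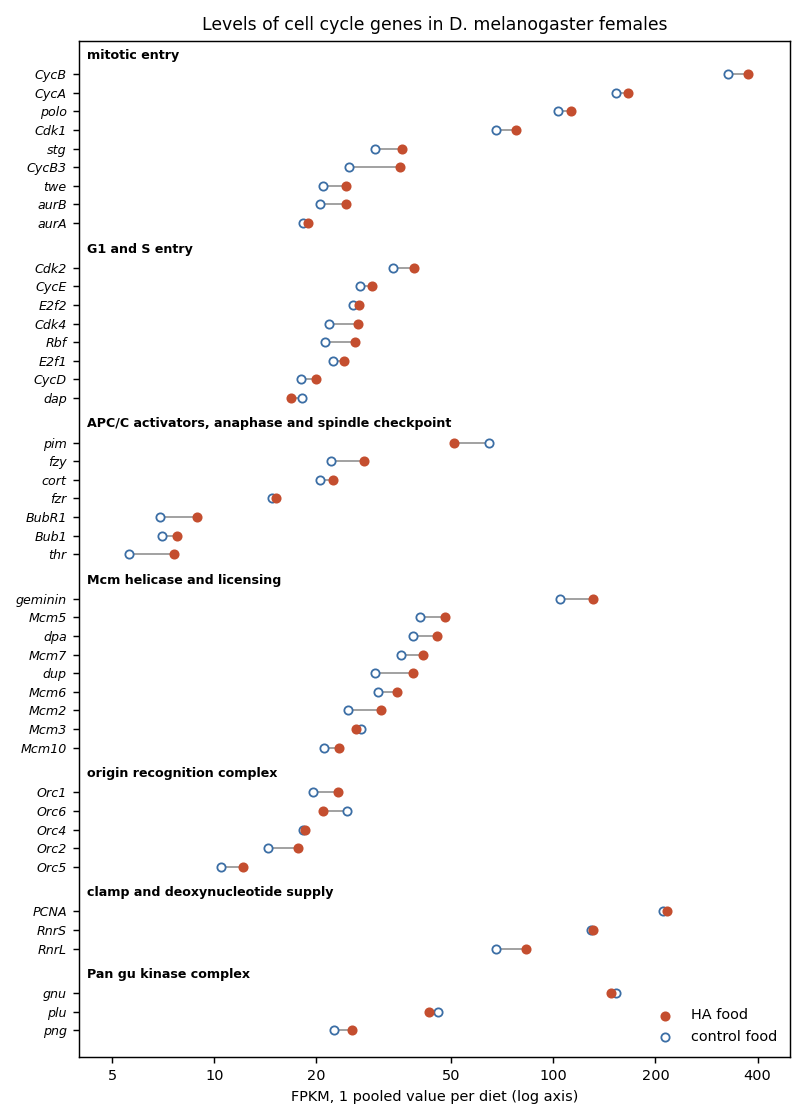
FPKM of the 44 listed genes in *D. melanogaster* (horizontal log axis) on HA food (filled red) and control food (open blue), 1 pooled value per diet, grouped by role. Levels run from 7.59 to 376 FPKM on HA food and from 5.60 to 326 FPKM on control food, and the HA value lies to the right for all but 6 genes.

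All 9 genes of mitotic entry had a value above control on HA food, with a median log2 ratio of 0.20, but only *CycB3* passed the margin. Of all genes, 50.4% were above control and 7.39% were higher past the margin. *CycB3*, a B-type cyclin needed in female meiosis, had the largest ratio of the whole list, with 35.3 FPKM on HA food and 24.9 FPKM on control food (log2 ratio 0.50). *CycB*, the main B-type cyclin, had a log2 ratio of 0.20. *CycA*, which acts with Cdk1 before and during mitosis, had 166 FPKM on HA food and 153 FPKM on control food (log2 ratio 0.12). So the 3 mitotic cyclins were all above control but by unequal amounts, and *CycB* was 10.6 times the level of *CycB3* on HA food and 13.1 times on control food. *Cdk1*, their kinase partner, had 77.6 FPKM on HA food and 67.7 FPKM on control food (log2 ratio 0.20), and the ratio of *CycB* to *Cdk1* was 4.84 on HA food and 4.82 on control food.

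The Cdc25 phosphatases, which switch on Cdk1 by removing an inhibitory phosphate, were likewise above control. The phosphatase of mitotic cycles, *stg*, had 35.8 FPKM on HA food and 29.7 FPKM on control food (log2 ratio 0.26). Its germline relative *twe*, which acts in meiosis, had 24.5 FPKM on HA food and 20.9 FPKM on control food (log2 ratio 0.23). The kinases of spindle and chromosomes differed less evenly. *polo*, the founding Polo kinase, had 113 FPKM on HA food and 103 FPKM on control food (log2 ratio 0.13). *aurB*, the kinase of the chromosomal passenger complex, had 24.4 FPKM on HA food and 20.5 FPKM on control food (log2 ratio 0.25). *aurA*, the kinase of the centrosomes, was almost level with 18.9 FPKM on HA food and 18.3 FPKM on control food (log2 ratio 0.051).

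None of the 8 genes of G1 and S entry passed the margin, and 7 of them were above control, with a median log2 ratio of 0.13. The shares over all genes were 7.39% higher and 16.9% lower past the margin and 50.4% above control. *Rbf*, the retinoblastoma homolog that holds back E2F, had the largest ratio among them, with 26.1 FPKM on HA food and 21.2 FPKM on control food (log2 ratio 0.30). *Cdk4*, the partner of cyclin D, had 26.6 FPKM on HA food and 21.8 FPKM on control food (log2 ratio 0.28). *CycD* itself had 19.9 FPKM on HA food and 18.0 FPKM on control food (log2 ratio 0.15). For the second pair the order was the same, with a larger ratio for the kinase than for the cyclin. *Cdk2* had 38.9 FPKM on HA food and 33.6 FPKM on control food (log2 ratio 0.21). *CycE*, which triggers S phase with Cdk2, had 29.2 FPKM on HA food and 26.9 FPKM on control food (log2 ratio 0.11).

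The E2F factors turn S-phase genes on or off and differed little between the diets. The activator *E2f1* had 24.2 FPKM on HA food and 22.4 FPKM on control food (log2 ratio 0.11). The repressor *E2f2* had 26.6 FPKM on HA food and 25.7 FPKM on control food (log2 ratio 0.050). *dap*, the inhibitor of cyclin E with Cdk2, was the one gene of this group below control, with 16.8 FPKM on HA food and 18.1 FPKM on control food (log2 ratio -0.11).

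The genes that end mitosis spanned the widest range of ratios of any group. Of 7 found by symbol, *thr*, *BubR1* and *fzy* were higher past the margin, *pim* was lower past the margin, and 3 lay within the margin. Among all genes 7.39% were higher and 16.9% lower past the margin. *pim* encodes securin, the inhibitor of separase, and had 50.9 FPKM on HA food and 64.4 FPKM on control food (log2 ratio -0.34). *thr* encodes separase, which opens sister chromatids at anaphase, and had 7.59 FPKM on HA food and 5.60 FPKM on control food (log2 ratio 0.43). The inhibitor and its target thus lay near opposite ends of the list, and *pim* was 6.71 times the level of *thr* on HA food and 11.5 times on control food. The exon lengths of the pair also lie far apart, with 978 bp for *pim* and 4578 bp for *thr*.

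The APC/C meets its substrates through activators, which differed in their ratios. *fzy*, the Cdc20 homolog of mitosis, had 27.6 FPKM on HA food and 22.01 FPKM on control food (log2 ratio 0.33, just past the margin). *cort*, the activator of female meiosis, had 22.4 FPKM on HA food and 20.5 FPKM on control food (log2 ratio 0.13). *fzr*, the Cdh1 homolog that opens endocycles in follicle cells, was almost level with 15.2 FPKM on HA food and 14.8 FPKM on control food (log2 ratio 0.044). The kinase genes of the spindle checkpoint, which keeps the APC/C off until chromosomes are attached, were at low levels. *BubR1* had 8.87 FPKM on HA food and 6.91 FPKM on control food (log2 ratio 0.36), and *Bub1* had 7.77 FPKM on HA food and 7.02 FPKM on control food (log2 ratio 0.14). The symbol *Mad2* was not found, but the table lists *mad2*, with 64.6 FPKM on HA food and 55.8 FPKM on control food (log2 ratio 0.21).

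**Figure D3:**
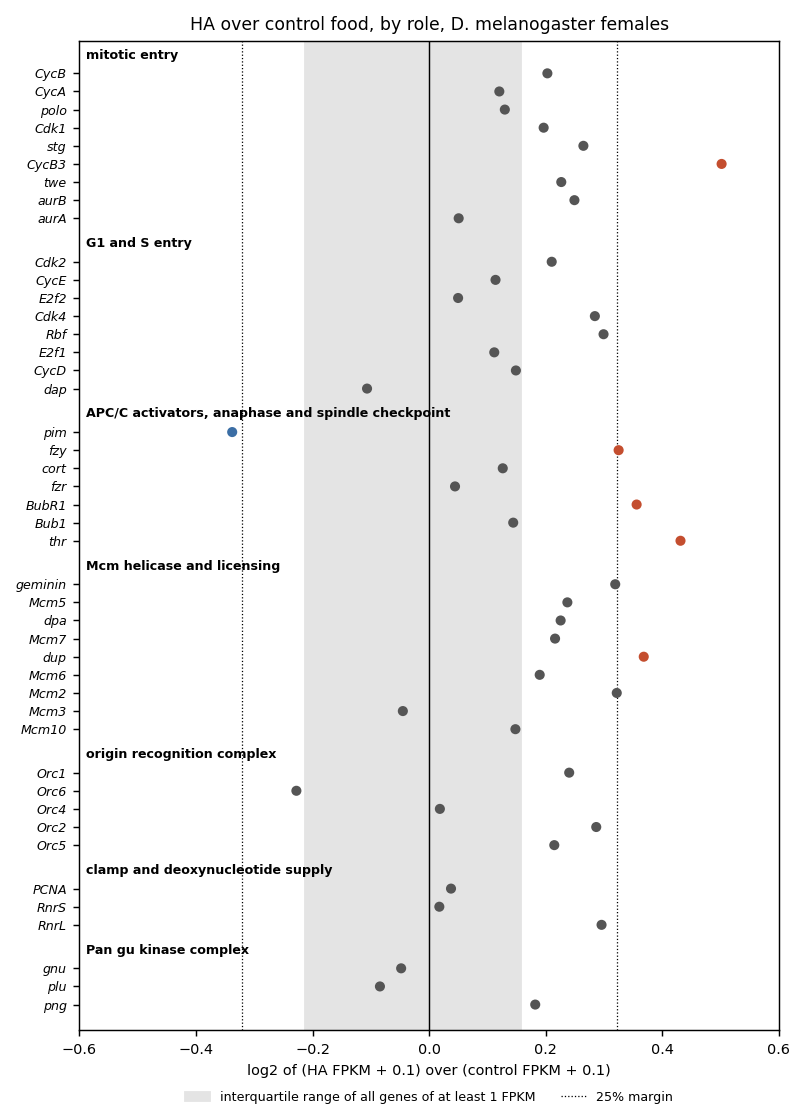
Log2 ratio of HA over control (horizontal axis, FPKM + 0.1) of the 44 listed genes in *D. melanogaster*, by role, with the interquartile range of all genes in grey (-0.21 to 0.16) and the 25% margin as dotted lines. Red marks the 5 genes higher past the margin (*CycB3*, *thr*, *dup*, *BubR1* and *fzy*) and blue the 1 lower past the margin (*pim*).

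The Mcm2 to Mcm7 subunits form the replicative helicase as a hexamer of 1 copy each, and 5 of these 6 genes were above control, against 50.4% of all genes. *Mcm5* had 47.8 FPKM on HA food and 40.5 FPKM on control food (log2 ratio 0.24). *dpa*, which encodes Mcm4, had 45.2 FPKM on HA food and 38.6 FPKM on control food (log2 ratio 0.23). *Mcm7* had 41.4 FPKM on HA food and 35.6 FPKM on control food (log2 ratio 0.22). These 3 differed from one another by little in level and in ratio. *Mcm6* had 34.7 FPKM on HA food and 30.4 FPKM on control food (log2 ratio 0.19). *Mcm2* had 31.0 FPKM on HA food and 24.7 FPKM on control food (log2 ratio 0.32, just inside the margin). *Mcm3* stood apart from its partners with 26.2 FPKM on HA food and 27.1 FPKM on control food (log2 ratio -0.045). *Mcm10*, a replication factor outside the hexamer, had 23.4 FPKM on HA food and 21.1 FPKM on control food (log2 ratio 0.15).

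The licensing factor and its inhibitor had similar ratios, of which only that of *dup* passed the margin. *dup*, which encodes Cdt1 and loads the helicase, had 38.4 FPKM on HA food and 29.8 FPKM on control food (log2 ratio 0.37). *geminin*, which binds and blocks Cdt1, had 131 FPKM on HA food and 105 FPKM on control food (log2 ratio 0.32, just inside the margin). The ratio of *geminin* to *dup* was therefore close on both diets, 3.40 on HA food and 3.52 on control food.

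Of the origin recognition complex, 5 subunits were found by symbol and 4 were above control, against 50.4% of all genes, with a median log2 ratio of 0.21. *Orc1*, the subunit whose amount varies with the cell cycle, had 23.1 FPKM on HA food and 19.5 FPKM on control food (log2 ratio 0.24). *Orc2* had 17.6 FPKM on HA food and 14.4 FPKM on control food (log2 ratio 0.29). *Orc5* had 12.1 FPKM on HA food and 10.4 FPKM on control food (log2 ratio 0.21). The remaining subunits did not follow these. *Orc4* was level with 18.5 FPKM on HA food and 18.3 FPKM on control food (log2 ratio 0.018). *Orc6*, the smallest subunit, was below control with 20.9 FPKM on HA food and 24.5 FPKM on control food (log2 ratio -0.23). The listed symbol *lat* is an older name of *Orc3*, which the table gives with 14.1 FPKM on HA food and 12.5 FPKM on control food (log2 ratio 0.17). Exons of *CG34315* on the same strand cover 100% of its exon length, so the value of *Orc3* is uncertain. With *Orc3* and *mad2* added, 40 genes were above control and the counts past the margin stayed at 5 higher and 1 lower.

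The clamp and the enzyme of deoxynucleotide supply were among the most abundant genes of the list. *PCNA*, the sliding clamp of the DNA polymerases, had 216 FPKM on HA food and 210.2 FPKM on control food (log2 ratio 0.038). *RnrS*, the small subunit of ribonucleotide reductase, had 131 FPKM on HA food and 129 FPKM on control food (log2 ratio 0.017). *RnrL*, its large subunit, had 83.3 FPKM on HA food and 67.8 FPKM on control food (log2 ratio 0.30). The subunits of this enzyme were thus unequal in ratio, and *RnrS* was 1.57 times the level of *RnrL* on HA food and 1.91 times on control food.

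The Pan gu kinase complex starts translation of maternal cyclin B mRNA when the egg is activated, and it was the group with the lowest median (-0.048). *gnu*, an activating subunit and the fourth most abundant gene of the list, had 148 FPKM on HA food and 152.5 FPKM on control food (log2 ratio -0.048). *plu*, the other cofactor, had 42.9 FPKM on HA food and 45.5 FPKM on control food (log2 ratio -0.084). *png*, the kinase itself, had 25.5 FPKM on HA food and 22.5 FPKM on control food (log2 ratio 0.18). Both cofactors have short transcripts of 923 bp and 616 bp.

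Exon length moved with these ratios across the whole *D. melanogaster* table, a comparison made after the values were seen. Among protein-coding genes of at least 1 FPKM, the median log2 ratio was -0.18 for the 1710 genes with under 1000 bp of annotated exons, -0.045 for 1000 to 1500 bp, 0.012 for 1500 to 2000 bp, 0.040 for 2000 to 3000 bp, 0.067 for 3000 to 4000 bp and 0.086 for the 1827 genes of 4000 bp or more. Above control were 28.2% of the shortest class and 68.8% of the longest. The listed genes have a median exon length of 2457.5 bp, against 1987 bp over all 9545 coding genes. The 4 listed genes under 1000 bp (*pim*, *Orc6*, *gnu* and *plu*) were all below control, with a median of -0.16. All 5 between 1000 and 1500 bp (*Cdk1*, *aurB*, *geminin*, *PCNA* and *png*) and all 7 between 1500 and 2000 bp were above control, where 44.4% and 51.1% of coding genes were. From 2000 to 3000 bp 15 of 17 were above control, against 56.5% of coding genes, the exceptions being *dap* and *Mcm3*, and above 3000 bp all 11 were (6 from 3000 to 4000 bp and 5 longer). Over the 44 genes, ratio and exon length had Pearson's r of 0.47 on log2 length and Spearman's rho of 0.41, as a description across genes that share 2 pooled values. The part of exon length in the ratios of single genes, *pim* against *thr* among them, was not tested.

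**Figure D4:**
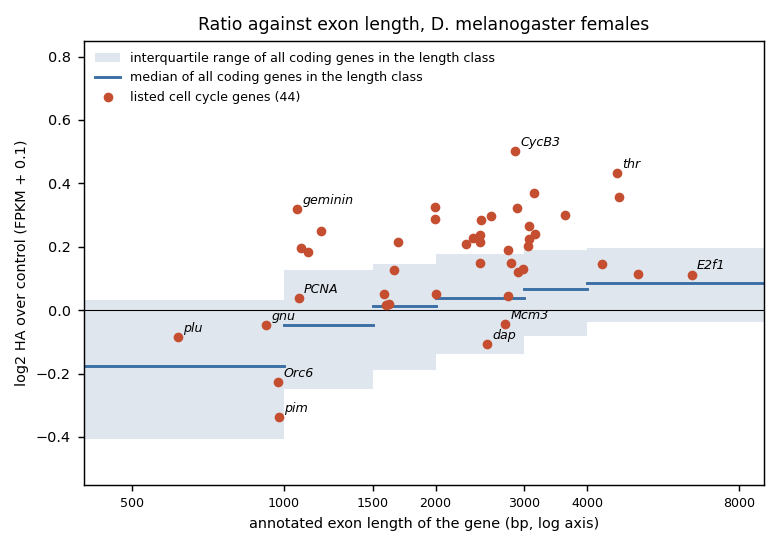
Log2 ratio of HA over control (vertical axis, FPKM + 0.1) against annotated exon length (horizontal log axis, bp) for the 44 listed genes (red) in *D. melanogaster*, with the median (blue line) and interquartile range (shaded) of all coding genes in 6 length classes. The blue line climbs from -0.18 under 1000 bp to 0.086 at 4000 bp or more, the 4 shortest listed genes lie below 0 and most others lie above the median of their class.

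The level of a gene moved with the ratio less evenly. From 5 to 10 FPKM all 3 listed genes (*thr*, *BubR1* and *Bub1*) were above control with a median of 0.36, against 59% and 0.056 among 1611 genes. From 50 to 100 FPKM 2 of 3 were above control with a median of 0.20, against 38.4% and -0.078 among 1017 genes. From 10 to 20 FPKM 6 of 7 listed genes were above control with a median of 0.051, against 62.5% and 0.067 among 2222 genes of that class, so the median of the listed genes was the lower one. From 20 to 50 FPKM, the class of 24 listed genes, 21 were above control with a median of 0.22, against 52.9% and 0.021 among 2279 genes of that class. From 100 to 400 FPKM 6 of 7 were above control with a median of 0.12, against 36.2% and -0.092 among 829 genes. The genes lie on all major chromosome arms, 12 on 2L, 14 on 2R, 4 on 3L, 8 on 3R and 6 on X, and the medians by arm ranged from 0.13 on 3L to 0.25 on 3R.

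For 20 of the 44 genes the locus in the table also held other genes, and how reads were shared among the genes of such a locus is not known from the table. The 24 genes with a locus of their own gave the same picture, with 20 above control, a median of 0.19, 2 higher past the margin (*CycB3* and *BubR1*) and 1 lower (*pim*), whereas *thr* shares its locus with *CG14490*, *dup* with *SRPK* and *fzy* with *cact*. Over all genes 50.4% were above control, 7.39% higher and 16.9% lower past the margin. Exons of another gene cover more than 10% of the exon length in 4 of the 44 genes, namely 81.7% in *Mcm7* (an antisense RNA), 43.9% in *Cdk2*, 19.9% in *E2f2* and 13.0% in *Mcm10*. Outside the 44, exons of *CG34315* on the same strand cover 100% of the exon length of *Orc3*. Exons of *kri* cover 11.5% of that of *mad2*. The sources used here do not say whether counting used strand, so the values of all these genes are uncertain. On the BDGP6 genome *CycB3* (FBgn0015625) lies on the minus strand of 3R from 24867934 to 24870816, and *pim* (FBgn0003087) on the plus strand of 2L from 10362989 to 10364092.

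The other genes of the cell cycle, taken from 6 lists by symbol, looked much like the 44. These lists were chosen with earlier results of these data known, so they are no independent check. Of 128 symbols 111 were found and 109 passed 1 FPKM. Above control were 87 of the 109 (79.8%), 20 were higher past the margin (18.3%) and 1 lower past the margin, with a median log2 ratio of 0.22, beside 50.4% above, 7.39% higher and 16.9% lower among all genes. With a pseudocount of 1 FPKM 13 were higher past the margin, a setting for which the share of all genes was not computed. In the replisome list only 22 of 34 symbols were found, and of these 22 genes 17 were above control and 6 higher past the margin. Its leading genes were *Caf1-180* and *Caf1-105*, subunits of the chromatin assembly factor that follows the fork, with log2 ratios of 0.45 and 0.42, and *RecQ4*, a helicase of origin firing, with 0.39. Among spindle and centrosome genes 17 of 19 were above control, led by the centriole genes *ana2* (12.1 FPKM on HA food and 8.96 FPKM on control food), *asl* and *Sas-4* with log2 ratios of 0.43, 0.40 and 0.38.

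Among genes of chromosome structure and the kinetochore 22 of 25 were above control and 6 higher past the margin, led by *Incenp*, a partner of aurora B, with 40.3 FPKM on HA food and 31.7 FPKM on control food (log2 ratio 0.35). *Spc105R* and *Cenp-C*, both of the kinetochore, followed with 0.34 each. For this and the next lists, the shares over all genes were 50.4% above control, 7.39% higher and 16.9% lower past the margin. Of 24 Cdk regulators and cell cycle transcription factors 17 were above control, and the largest ratios were those of *mip120* and *mip130* (0.39 and 0.36), subunits of a complex with Rbf and E2f2, and *gwl*, the Greatwall kinase (0.37). Of 9 APC/C subunits and ubiquitin carriers 7 were above control, and only *ida* passed the margin (0.35). Of 10 genes of meiosis and egg activation 7 were above control, none was higher past the margin, and *sra*, a calcineurin regulator needed for egg activation, was lower with 47.7 FPKM on HA food and 64.4 FPKM on control food (log2 ratio -0.43).

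**Figure D5:**
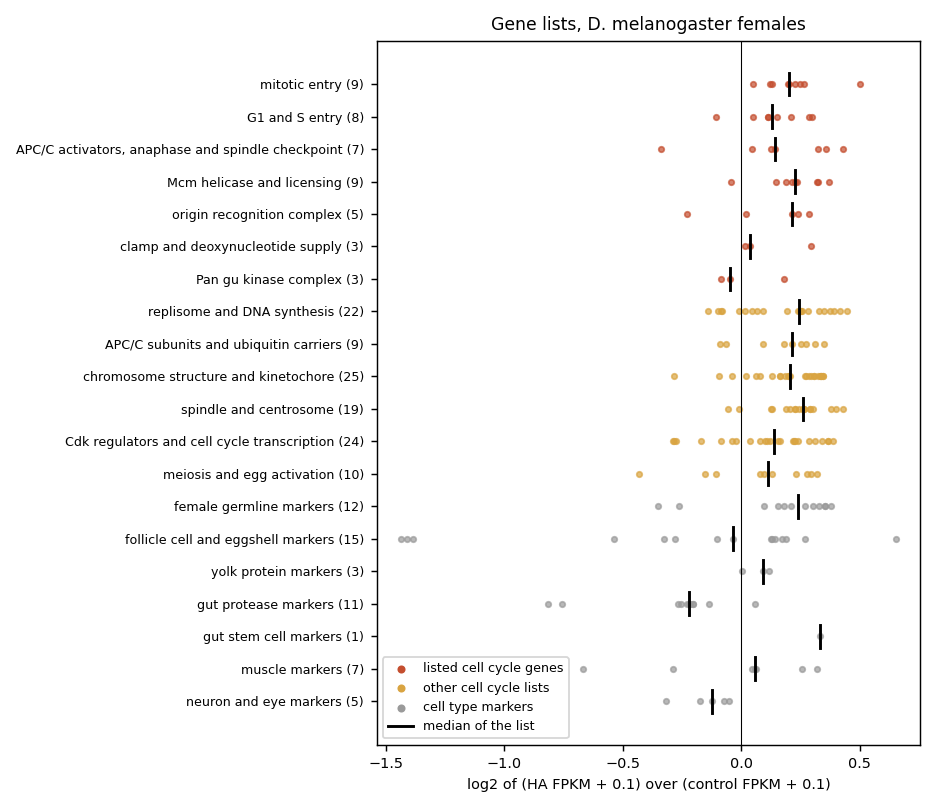
Log2 ratio of HA over control (horizontal axis, FPKM + 0.1) of each gene of at least 1 FPKM in the 7 groups of listed genes (red), the 6 other cell cycle lists (yellow) and 7 lists of cell type markers (grey) in *D. melanogaster*, with the median of each list as a bar and its number of genes in brackets. The medians of the 6 other cell cycle lists lie between 0.11 and 0.26, that of the female germline markers at 0.24 and that of the gut proteases at -0.22.

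In RNA from whole flies, fewer cells of a type and less RNA per cell cannot be told apart, and most female germline markers lay above control together with the list. Of 12 female germline markers of at least 1 FPKM, 10 were above control (median log2 ratio 0.24) and 4 were higher past the margin (*aub*, *orb*, *piwi* and *bam*) and 1 lower (*nos*), against 50.4% above, 7.39% higher and 16.9% lower among all genes, while the summed level of the list was 1049 FPKM on HA food and 1064 FPKM on control food. The markers of this list below control were *pgc* and *nos*, with 365 and 85.5 FPKM on HA food and 438 and 109 FPKM on control food. Follicle cell and eggshell markers were mixed, with 7 of 15 above control, 1 higher past the margin and 5 lower, and sums of 17590.4 FPKM on HA food and 19083 FPKM on control food. The 3 yolk protein genes were all above control and within the margin (log2 ratios of 0.0013 to 0.12). The gut stem cell markers went in opposite directions. *Dl* had 5.50 FPKM on HA food and 4.34 FPKM on control food (log2 ratio 0.33, higher past the margin). In whole flies the tissue that its RNA came from is not known. *esg*, under 1 FPKM on both diets, had 0.834 FPKM on HA food and 0.951 FPKM on control food. Of 11 gut proteases 10 were below control and 2 lower past the margin, with sums of 8183 FPKM on HA food and 9828 FPKM on control food. Of 7 muscle markers 5 were above control, 0 higher past the margin and 1 lower (median 0.059, sums of 5890 FPKM on HA food and 6177 FPKM on control food). The lower one was *TpnC4*, with 761 FPKM on HA food and 1209 FPKM on control food (log2 ratio -0.67). All 5 neuron and eye markers were below control and within the margin (median -0.12, sums of 961 FPKM on HA food and 1190 FPKM on control food). Of 14 testis and male accessory gland markers none reached 1 FPKM, 7 were listed at 0 on both diets, and the list summed to 1.24 FPKM on HA food and 0.925 FPKM on control food, so the libraries match their label as females. The part of tissue make-up in the ratios of the cell cycle genes was not tested.

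In *D. simulans* both genes found by symbol were below control. *Mcm3* had 93.4 FPKM on HA food and 96.5 FPKM on control food (log2 ratio -0.048), and *plu* had 21.3 FPKM on HA food and 25.4 FPKM on control food (log2 ratio -0.26). Neither passed the margin, against a background of 4.17% higher and 23.5% lower among 9352 genes of that table, whose median log2 ratio was -0.12. Relative to that median, *Mcm3* was above the middle of its table and *plu* below it. *PCNA* is listed there under its older name *mus209*, with 391 FPKM on HA food and 386 FPKM on control food (log2 ratio 0.018).

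In *D. sechellia* the single gene found by symbol, *plu*, had 101 FPKM on HA food and 80.0 FPKM on control food (log2 ratio 0.34), higher past the margin, against a background of 13.2% higher and 9.89% lower among 12109 genes of that table. Centred on the median of all genes of the table, the ratio was 0.32 and no longer passed the margin. The gene listed as *mus209* was level, with 209.9 FPKM on HA food and 212 FPKM on control food (log2 ratio -0.015). Set side by side, *plu* had a log2 ratio of -0.084 for *D. melanogaster*, -0.26 for *D. simulans* and 0.34 for *D. sechellia*. The ratios of *PCNA* (*mus209*), which were 0.038, 0.018 and -0.015 in the same order of species, lay closer together. None of these ratios is centred, and the medians of all genes differed, at 0.0028, -0.12 and 0.023 in that order. Centred on those medians, *plu* had -0.087, -0.13 and 0.32. The genes are neighbours in each genome, with 74 bp between them for *D. melanogaster*, 79 bp for *D. simulans* and 303 bp for *D. sechellia* as the tables give their ends. Each species was quantified in a run of its own and read length differed between *D. sechellia* and the others, so levels are not compared between species and the difference between these ratios was not tested.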

How the data were processed

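The authors deposited 1 gene table per species with FPKM values. Per the study's methods, reads of poly-A selected libraries were mapped with Bowtie2 to the Ensembl genomes BDGP6, ASM75419v3 and dsec_caf1 and quantified with Cuffdiff (geometric normalization, bias correction), which pooled the 3 libraries of each diet; tool versions are not given in the sources used here. Bowtie2 does not split reads over introns, so reads over exon junctions were probably lost on both diets. The tables also hold the authors' fold changes, test statistics, p and q of their own comparison, which were not used. The members and lists were chosen with earlier results of these data known. Computed here were the log2 ratio of HA over control with a pseudocount of 0.1 FPKM, and medians. Genes past a 25% margin (the larger value at least 25% above the smaller) were counted among genes with a mean of at least 1 FPKM. Alternatives were pseudocounts of 1 and 0.01, no minimum or one of 5 FPKM, folds of 1.1 and 1.5, and centring. Every member could be named; of other lists, the 3 genes furthest past the margin in each direction. Exon lengths came from the Ensembl release 115 annotation of BDGP6, where the authors used release 95, matched by identifier or symbol for 99.6% of genes of at least 1 FPKM and all 44 members. Locus starts are counted from 1. Python 3.11.15, pandas 2.3.3, NumPy 2.4.6, SciPy 1.17.1 and matplotlib 3.10.9 were used.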

Additional observations from a re-analysis of the deposited data

How the results depend on the processing

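For the 44 *D. melanogaster* genes, the count above control and the median kept their direction under every alternative run. With a pseudocount of 1 FPKM, 3 genes in place of 5 were higher past the 25% margin, as *fzy* (0.31) and *BubR1* (0.32) moved just inside it. With one of 0.01 FPKM, 6 were higher, as *Mcm2* (0.323) moved just past it. A threshold of 1.5-fold left 0 higher and 0 lower, against 1.93% and 6.06% of all genes. One of 1.1-fold gave 27 higher and 2 lower. The shares of all genes at 1.1-fold and with the other pseudocounts were not computed, here or for the other cell cycle lists. Over all genes the quartiles, -0.21 and 0.16, both lie past 1.1-fold, so many genes of the table pass it in each direction. Among members with a locus of their own, an alternative chosen after seeing the data, 20 were above control and 2 higher. For the other cell cycle lists, 13 genes were higher with a pseudocount of 1 (median 0.20), 0 and 0 past 1.5-fold, 68 higher and 8 lower past 1.1-fold, and the median was 0.21 with a minimum of 5 FPKM. In *D. simulans*, 1 gene (*plu*) was lower at 1.1-fold; centring on the median of all genes put 1 gene above control (median -0.027), and adding *mus209* also gave 1 (median -0.048). In *D. sechellia*, *plu* was no longer past the margin when centred (0.32) or at 1.5-fold (0 genes), and adding *mus209* gave a median of 0.16. No paired analysis was possible because the tables hold 1 pooled value per diet, and for the same reason leaving out a replicate was not run.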
